A study of Mus musculus with 48 samples.

Results

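The growth hormone, STAT5 and IGF1 axis is described here through 10 genes in mouse liver and visceral fat. They are the rows named Ghr, Igf1, Igfals, Stat5a, Stat5b, Socs2, Cish, Bcl6, Cux2 and Onecut1, picked by symbol from the 30055 rows of the deposited gene table. All 10 rows were found, and all 10 passed the filter on low counts in both tissues. The animals were C57BL6/J females and males that began, at 8 weeks of age, either a high-fat diet (HFD) with 45% of its calories from fat or a regular chow diet (RD). Tissues were taken after 12 weeks or after 2 weeks, from separate cohorts, so age differs with time on the diet. The labels name no allele, transgene or drug, and the groups differ there by tissue, sex, diet and time. Each tissue had 8 groups of 3 libraries, which gave 48 libraries of stranded mRNA from the 2 tissues. The groups are HFD females, RD females, HFD males and RD males at 12 weeks, and the same 4 at 2 weeks. The labels do not say what the number of a sample stands for beyond its group, so p-values measure the spread between these samples.

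The pituitary releases growth hormone in pulses in male mice and more continuously in females. In hepatocytes the hormone binds its receptor GHR and activates the kinase JAK2, which phosphorylates STAT5b and STAT5a. These enter the nucleus and switch on genes such as Igf1, Igfals, Socs2 and Cish. IGF1 circulates in a complex with an IGF-binding protein and the acid-labile subunit encoded by Igfals. SOCS2 and CIS, the protein of Cish, feed back on the receptor and on STAT5. BCL6, CUX2 and ONECUT1 (also called HNF6) are transcription factors that act with STAT5 on the sex-biased genes of the mouse liver. Adipocytes also carry the receptor and make IGF1 locally.

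Library totals ran from 50.9M to 80.1M estimated counts in liver and from 44.7M to 105.4M in fat. Levels below are in CPM, the counts per one mega-count of the library, scaled within each tissue, so values of different tissues or of different genes are not compared. Summed CPM of 8 hepatocyte markers ran from 81402 to 138742 in liver, and that of 7 adipocyte markers from 13994 to 22114 in 23 fat libraries. The fat library of HFD female 1 at 2 weeks stood apart, with 5542 CPM of adipocyte markers and 640.2 CPM of bile duct cell markers. In liver, an HFD male library at 2 weeks had 295.5 CPM of bile duct cell markers, against 29.0 and 48.8 CPM in the others of its group. The highest value in any other liver group was 74.2 CPM. Epididymis markers summed to 3704, 3787 and 6012 CPM in the RD male fat libraries at 12 weeks, against 8.09 CPM at most in the HFD males at 12 weeks. At 2 weeks they reached 8267 CPM in HFD male 13, and 9932 and 2805 CPM in RD males 6 and 8.

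In liver, Cux2 was the gene of the axis with a sex difference in every setting. Cux2 encodes a homeobox factor that represses male-biased genes in the female mouse liver. At 12 weeks on HFD it stood at 56.2, 24.2 and 35.1 CPM in females, against 5.92, 5.30 and 5.15 CPM in males. On RD at 12 weeks it had 20.4, 14.1 and 33.9 CPM in females and 4.33, 5.16 and 4.8 CPM in males. All females exceeded all males in both settings. At 2 weeks HFD females had 25.4, 26.9 and 9.62 CPM, against 2.62, 4.04 and 4.18 CPM in HFD males. At 2 weeks RD females had 31.2, 23.3 and 22.6 CPM, against 4.58, 3.28 and 5.14 CPM in RD males. The lowest of the 12 female livers, at 9.62 CPM, was still above the highest of the 12 male livers, at 5.92 CPM.

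**Figure D1:**
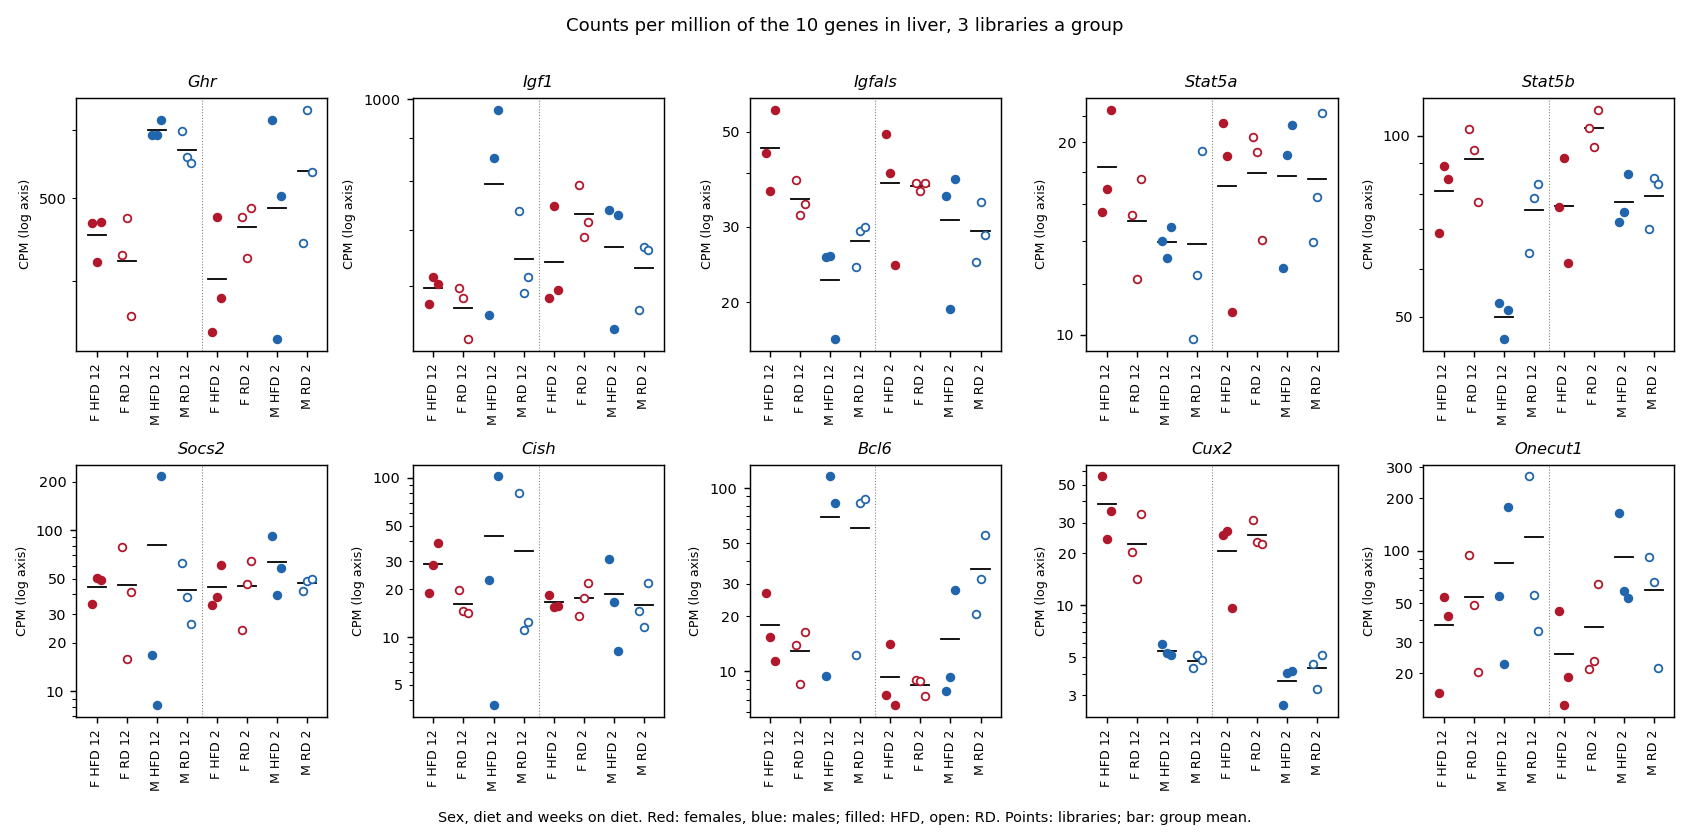
Levels (CPM) of each gene in the 24 liver libraries, on log axes, by sex, diet and weeks on the diet; points are libraries and bars are group means. Cux2 separates females (red) from males (blue) without overlap, while Bcl6, Cish, Socs2 and Onecut1 spread widely among the male libraries of single groups.

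The female over male log2 fold change of Cux2 was 2.82 ± 0.37 on HFD at 12 weeks (SE, n = 3 per group, edgeR adjusted p = 3.4e-05) and 2.26 ± 0.37 on RD at 12 weeks (edgeR adjusted p = 0.00052). It was 2.52 ± 0.37 on HFD at 2 weeks (edgeR adjusted p = 0.00014) and 2.57 ± 0.37 on RD at 2 weeks (edgeR adjusted p = 0.00012). Across every alternative setting and every left-out library these 4 calls held. By group mean, HFD females at 12 weeks were highest with 38.5 ± 16.2 CPM (SD, n = 3), and HFD males at 2 weeks were lowest with 3.61 ± 0.86 CPM. Neighbouring groups in the order of means overlapped, apart from the step between the lowest female group, HFD at 2 weeks, and the highest male group, HFD at 12 weeks. Of 10757 liver genes, those most similar to Cux2 in pattern over the 8 groups were Gm14496, Prlr and Abcb1a. The root mean squared differences were 0.254, 0.281 and 0.292 log2 units. Likeness here is of the pattern between groups, and levels of different genes are not compared. Prlr encodes the prolactin receptor, and Abcb1a an efflux transporter.

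Igfals and Stat5b were called as well, in females over males on HFD at 12 weeks. Igfals, the acid-labile subunit that holds IGF1 in the circulation, had 44.5, 36.3 and 56.3 CPM in females, against 25.5, 25.6 and 16.4 CPM in males. Its log2 fold change was 1.02 ± 0.25 (SE, edgeR adjusted p = 0.0079), and the sexes did not overlap. Without HFD female 7 the log2 fold change was 0.84 and the adjusted p was 0.0501. Stat5b, the main STAT5 of hepatocytes, had 69.0, 89.2 and 84.7 CPM in females, against 52.7, 45.9 and 51.4 CPM in males. Its log2 fold change was 0.70 ± 0.15 (SE, edgeR adjusted p = 0.0033), again with no overlap, and the call held without each library. On RD the sexes also did not overlap for Igfals at 12 weeks (log2 0.33) and 2 weeks (log2 0.35), or for Stat5b at 2 weeks (log2 0.38). They overlapped for Stat5b on RD at 12 weeks and for both genes on HFD at 2 weeks. None of these was called. In these bulk libraries, fewer cells of a type and less RNA per cell cannot be told apart.

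Those 3 calls of 10 in HFD livers at 12 weeks stand against 17.3% of all 15897 genes tested in that comparison, with 9.93% called higher in females and 7.4% lower. In the other sex comparisons Cux2 was the single call of the 10. There 8.81% of all genes were called on RD at 12 weeks (5.63% higher and 3.18% lower in females), 12.4% on HFD at 2 weeks (6.33% and 6.06%) and 9.81% on RD at 2 weeks (5.37% and 4.45%). Markers of other cells also differed between the sexes, in both directions. All 10 macrophage and Kupffer cell markers were called higher in HFD females at 12 weeks. Their summed levels were 630.0 to 708 CPM, against 161 to 249 CPM in HFD males. Of 10 endothelial and stellate cell markers 7 were called higher, with sums of 424 to 497 CPM in females and 196 to 332 CPM in males. Adipocyte markers summed to 22.4 to 35.5 CPM in females, against 45.1 to 103 CPM in males, and B and T cell markers to 4.47 to 4.87 CPM, against 2.07 to 3.10 CPM. Of 8 hepatocyte markers 1 was called lower in females, and their sums overlapped between the sexes. The part of these markers in the Igfals and Stat5b differences was not tested.

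Whether diet changes the sex difference was asked with the sex by diet interaction. No gene of the 10 was called at 12 weeks or at 2 weeks, and 0% of all genes were called in either; edgeR gave 0 members at an unadjusted p under 0.05 at each time, and DESeq2 called 0. Igfals at 12 weeks had an interaction of 0.70 (log2, edgeR adjusted p = 0.74), with an approximate 95% interval from its SE of 0.01 to 1.39. That interval leaves out the degrees of freedom of the test and is too narrow. The unadjusted p of Igfals was not under 0.05. For Cux2 the interval ran from -0.42 to 1.54 at 12 weeks and from -1.03 to 0.93 at 2 weeks. Female over male calls on one diet are thus not shown to differ from those on the other.

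**Figure D2:**
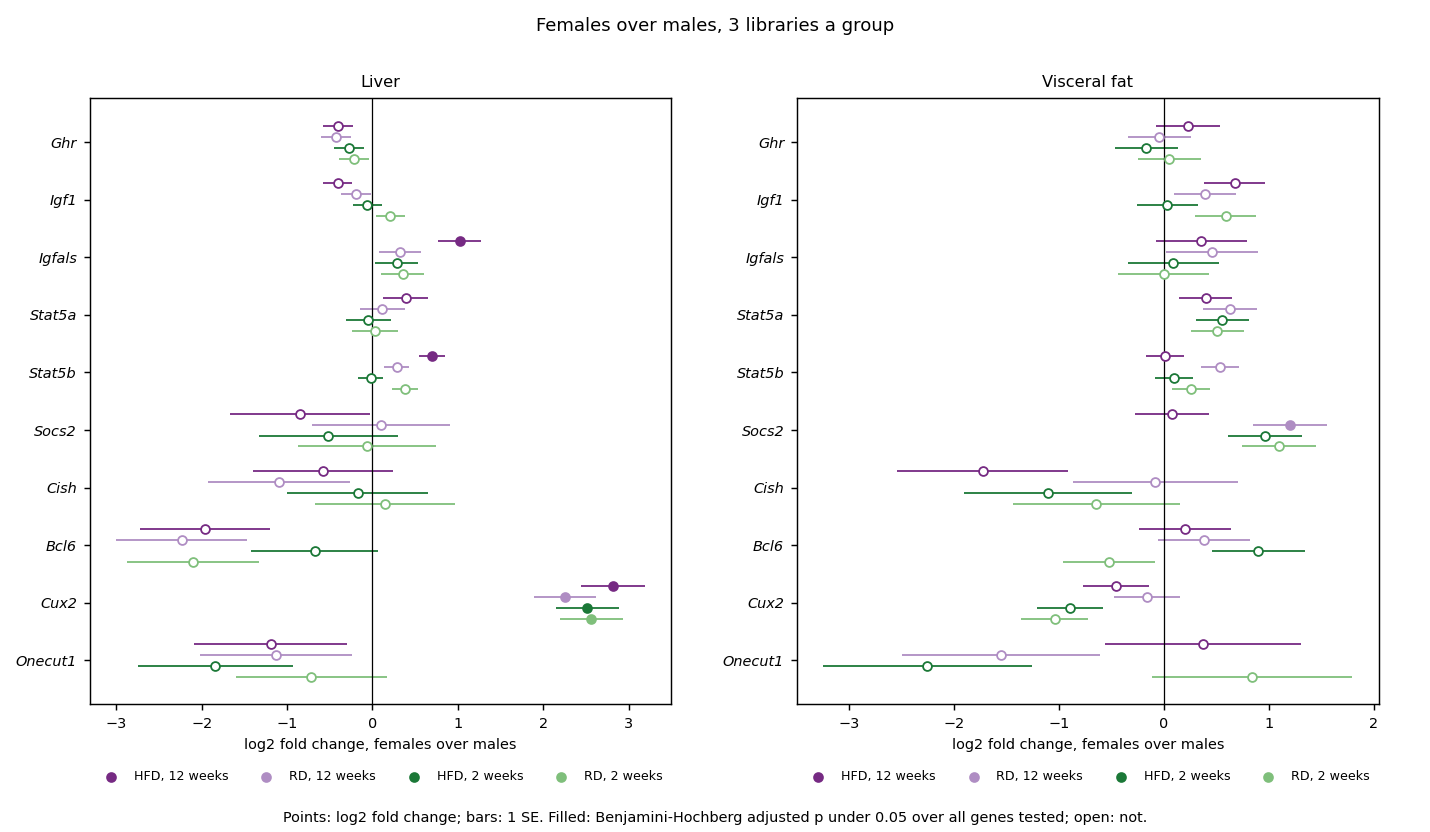
Female over male log2 fold change of each gene in liver and in visceral fat, for both diets at both times; bars are 1 SE and filled points passed an adjusted p of 0.05 over all genes tested. Cux2 is filled in all 4 liver comparisons, and Igfals and Stat5b on HFD at 12 weeks; in fat the filled point is Socs2 on RD at 12 weeks.

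The genes of the receptor and of its main product were not called between the sexes. Ghr ran from 349 to 487 CPM in the 12 female livers, with a median of 449 CPM, and from 342 to 634 CPM in the 12 male livers, with a median of 575 CPM. At 12 weeks HFD females had 468, 421 and 469 CPM, below the 592, 592 and 616 CPM of HFD males. The log2 fold change of Ghr there was -0.41 ± 0.17 (SE, edgeR adjusted p = 0.11). On RD at 12 weeks it was -0.43 ± 0.17 (SE, edgeR adjusted p = 0.13), also without overlap. At 2 weeks the sexes overlapped on both diets. Igf1 had a median of 600.2 CPM in female livers and 665 CPM in male livers, with log2 fold changes between -0.41 and 0.21 and no call. HFD males at 12 weeks were highest by mean with 793 ± 215 CPM of Igf1, and RD females at 12 weeks lowest with 566 ± 41.4 CPM (SD, n = 3 each). The genes closest to Igf1 in pattern over the 8 liver groups were Emc2, Pex3 and Ssb, with differences of 0.055 to 0.058 log2 units.

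Stat5a, the second STAT5 gene, lies beside Stat5b on chromosome 11 of GRCm38, where GENCODE M21 places Stat5a at 100859351 to 100885169 and Stat5b at 100780731 to 100850724. Their coding sequences are very similar, so the division of reads between them is uncertain. Stat5a ran from 10.9 to 22.5 CPM in female livers and from 9.85 to 22.3 CPM in male livers. HFD females at 12 weeks, at 15.5 to 22.5 CPM, lay just above HFD males, at 13.2 to 14.8 CPM, with a log2 fold change of 0.39 ± 0.27 (SE, edgeR adjusted p = 0.34).

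Other genes of the pathway were taken from a list of 31 receptors, binding proteins, kinases, phosphatases and adaptors, of which 27 were tested in liver. On HFD at 12 weeks 8 were higher and 2 lower in females, with a median log2 fold change of 0.005, against 0.009 over all genes. Prlr had a log2 fold change of 1.89 ± 0.19 there, and Igfbp3 and Igfbp7, which encode IGF-binding proteins, had 0.79 ± 0.17 and 0.64 ± 0.14. Ptpn11, which encodes the phosphatase SHP2, fell by 0.63 on the log2 scale. On RD at 12 weeks 2 were higher and 1 lower, with a median of 0.15 against 0.03 over all genes, with Prlr at 1.97 and Socs3, a cytokine signalling inhibitor, at -2.51. On HFD at 2 weeks 4 were higher and 1 lower, with a median of 0.02 against 0.04 over all genes, with Prlr at 2.65, Irs1, a receptor substrate, at 0.75 and Stat3 at -1.02. On RD at 2 weeks Prlr rose by 2.79 ± 0.20 and Grb10, an adaptor of insulin and IGF1 receptors, fell by 0.77, and the median of the list was 0.03, against 0.06 over all genes.

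Downstream, the liver genes with known growth hormone dependence separated the sexes. Of 26 female-biased genes 24 were called higher in females on HFD and all 26 on RD at 12 weeks, and 24 on each diet at 2 weeks. Of 24 male-biased genes 24 and 22 were called lower in females on HFD and on RD at 12 weeks, and 22 and 23 at 2 weeks, with 1 higher on RD at 2 weeks. These lists were chosen for their sex bias, so their direction checks the labels and is no result. Among 21 liver transcription factors, Cux1, a relative of Cux2, was called lower in females in all 4 settings, at -0.48 ± 0.11 on HFD and -0.58 ± 0.11 on RD at 12 weeks, and at -0.47 ± 0.11 on HFD and -0.35 ± 0.11 on RD at 2 weeks (SE of log2 fold changes). Esr1, the oestrogen receptor alpha, was higher by 1.30 ± 0.28 and 1.43 ± 0.28 on HFD and RD at 12 weeks. On RD at 2 weeks it was higher by 1.53 ± 0.28, and its value on HFD at 2 weeks is not given here.

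Male livers differed among themselves in 4 genes of the axis. Within groups, the SD of log2 CPM over the 12 female livers was 0.34 for Cish, 0.50 for Bcl6, 0.73 for Socs2 and 0.97 for Onecut1, against 1.53, 1.41, 1.32 and 1.29 for the same genes over the 12 male livers. The median gene had 0.28 in females and 0.29 in males, and each of the 4 male values was above that of at least 96.8% of genes. The female values of Onecut1 and Socs2 were also high, above those of 95.2% and 90.3% of genes, and those of Bcl6 and Cish above 78.9% and 62.0%. Cish, a feedback inhibitor of STAT5 signalling, ranged 2.86-fold over the female livers, from 13.6 to 39.0 CPM, and 27.6-fold over the male livers, from 3.72 to 103 CPM. Socs2, the feedback inhibitor of the receptor, ranged 4.95-fold in females, from 15.9 to 78.8 CPM, and 26.5-fold in males, from 8.18 to 216 CPM. Cux2 had the wider spread in females, with an SD of 0.62 over female livers and 0.26 over male livers. No test was made of these differences in spread.

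The same 3 male livers led in 3 genes. HFD male 4 at 12 weeks had 103 CPM of Cish, 216 CPM of Socs2 and 179 CPM of Onecut1. HFD male 12 at 2 weeks had 31.0 CPM of Cish, 92.1 CPM of Socs2 and 165 CPM of Onecut1. RD male 2 at 12 weeks had 80.3 CPM of Cish, 62.4 CPM of Socs2 and 267 CPM of Onecut1. No other male liver exceeded 22.7 CPM of Cish, 58.5 CPM of Socs2 or 92.4 CPM of Onecut1. The 3 livers come from 3 groups of both diets and both times.

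Bcl6, a repressor that binds many of the same liver sites as STAT5, did not follow one order with them. It was low in HFD male 12 at 2 weeks (7.79 CPM) and in RD male 2 at 12 weeks (12.3 CPM), and high in HFD male 4 at 12 weeks (82.6 CPM). The highest Bcl6 level, 116 CPM in HFD male 3 at 12 weeks, stood with the lowest Cish and Socs2 levels of any male liver, 3.72 and 8.18 CPM. At 12 weeks RD males 3 and 4 had 83.2 and 86.8 CPM of Bcl6. Female livers had 6.51 to 26.6 CPM, with a median of 10.2 CPM, and male livers a median of 29.7 CPM. The female over male log2 fold change was -1.97 ± 0.76 on HFD and -2.23 ± 0.77 on RD at 12 weeks, and -0.68 ± 0.75 on HFD and -2.10 ± 0.77 on RD at 2 weeks (SE). None was called, with edgeR adjusted p between 0.079 and 0.61. The sexes overlapped in Bcl6 in each setting apart from RD at 2 weeks.

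**Figure D3:**
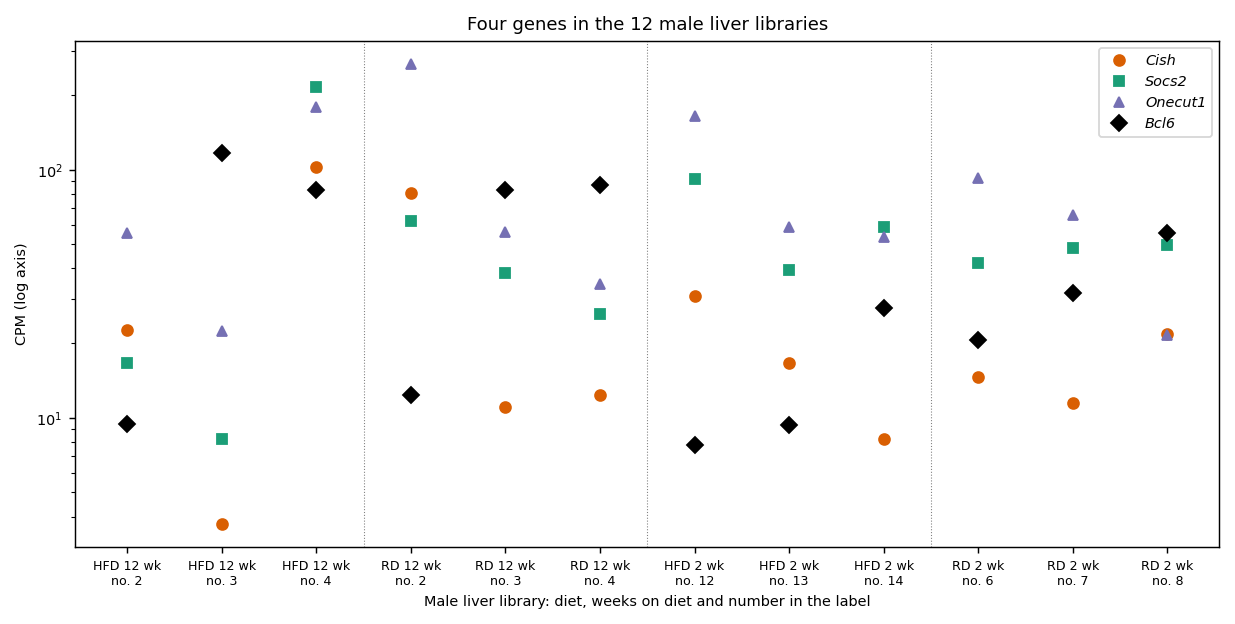
Levels (CPM) of Cish, Socs2, Onecut1 and Bcl6 in each of the 12 male livers, on log axes. HFD male 4 and RD male 2 at 12 weeks and HFD male 12 at 2 weeks hold the 3 highest levels of Cish, Socs2 and Onecut1; Bcl6 is high in the first and low in the other two.

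Short stretches at the Cish and Bcl6 starts are shown because STAT5 and BCL6 are known to bind the motif TTCNNNGAA, and these genes had the widest spread of the 10 within groups of male livers. The motif reads the same on both strands. RefSeq promoter windows of 300 bases, from 250 before to 50 after a start, were held for 9 of the 10 genes, in 16 windows on GRCm38.p6. The motif was in 5 of the 16 windows (31.2%), in Cish, Bcl6 and Igfals, against 8.3% of all 32851 windows. Cish, on the plus strand of chromosome 9 at 107296026 to 107302784, has it at a RefSeq start within the gene. That start is at 107296659, and a further copy begins 11 bases after it. Bcl6 lies at chromosome 16, 23965052 to 23988852 on the minus strand. It has 3 copies at a start within the gene, at -168, -122 and -88 from it, and 0.0335% of all windows hold 3 or more. The other Bcl6 window, at the first base of the gene, holds 1 copy, at -118. The Bcl6 window with more copies is the one shown. In the lines, capitals mark the motif. A match of letters says nothing of binding in these livers.
Cish chr9:107296654-107296683 (plus strand): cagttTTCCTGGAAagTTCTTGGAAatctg
Bcl6 chr16:23981254-23981533 (minus strand): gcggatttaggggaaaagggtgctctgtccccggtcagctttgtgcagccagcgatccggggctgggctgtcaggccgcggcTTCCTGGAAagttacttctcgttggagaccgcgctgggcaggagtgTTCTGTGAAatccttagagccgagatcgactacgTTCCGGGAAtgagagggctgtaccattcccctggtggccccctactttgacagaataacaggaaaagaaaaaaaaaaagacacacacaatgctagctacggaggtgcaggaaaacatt

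Socs2, Cish and Onecut1 gave no sex call in liver. Their female over male log2 fold changes ran from -0.85 to 0.10 for Socs2, from -1.10 to 0.15 for Cish and from -1.84 to -0.71 for Onecut1. Onecut1, a homeobox factor of hepatocytes, had 45.1, 13.1 and 19.1 CPM in HFD females at 2 weeks, against 165, 58.7 and 53.4 CPM in HFD males (log2 fold change -1.84 ± 0.91, SE, edgeR adjusted p = 0.205). The lowest male lay above the highest female in that setting. With SEs of 0.81 to 0.91 log2 units for these 3 genes, a sex difference of the size of that of Stat5b was not detectable with 3 libraries a group. The genes nearest to Socs2 in pattern over the groups were 1810043H04Rik, Bckdk and Klhl36, and those nearest to Bcl6 were Tsku, Snhg11 and Unc13b. The differences were at least 0.083 and 0.379 log2 units.

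None of the 10 genes was called for diet in liver by edgeR. Calls over all genes were few as well, at 0.00629% in females and 1.12% in males at 12 weeks (0.201% higher and 0.918% lower in HFD males), and at 0.252% in females (0.0315% higher and 0.22% lower) and 0.34% in males at 2 weeks. At an unadjusted p under 0.05 there was 1 member in each of the comparisons of females at 12 weeks, males at 12 weeks and females at 2 weeks, and 0 in males at 2 weeks. DESeq2 called 1 member in males at 12 weeks and 0 in each of the others. That gene was Stat5b, at 52.7, 45.9 and 51.4 CPM in HFD males at 12 weeks, against 63.9, 78.8 and 83.2 CPM in RD males. The groups did not overlap, and the log2 fold change was -0.59 ± 0.15 (SE, edgeR adjusted p = 0.061, DESeq2 adjusted p = 0.0095). Without RD male 2 edgeR gave -0.72 and an adjusted p of 0.041. Stat5b was also the member under an unadjusted p of 0.05 in females at 2 weeks. HFD females there had 76.1, 91.9 and 61.5 CPM, against 103, 95.8 and 111 CPM in RD females, without overlap. The log2 fold change was -0.43 ± 0.15 (SE, edgeR adjusted p = 0.32). It was -0.18 in females at 12 weeks and -0.03 in males at 2 weeks, both with overlap.

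Macrophage and Kupffer cell markers also differed between the diets in male livers at 12 weeks. There 5 of 10 were called lower in HFD males, with sums of 161 to 249 CPM, against 367 to 447 CPM in RD males. Adipocyte markers summed to 45.1 to 103 CPM in HFD males at 12 weeks, against 29.7 to 37.1 CPM in RD males, with 2 of the 5 tested called higher. The part of both lists in the Stat5b values was not tested. Igf1 and Ghr had log2 fold changes from -0.20 to 0.29 for HFD over RD in the 4 liver comparisons, each within 2 SE of 0. Of the 27 other pathway genes none was called for diet in any of the 4. Of the 26 female-biased genes 1 was higher and 2 lower in HFD males at 12 weeks, with Cyp2b9 at 2.52 ± 0.53, Cyp2c40 at -4.39 ± 0.90 and Cyp2c69 at -3.05 ± 0.69 (SE of log2 fold changes). In HFD females at 2 weeks 4 of the 26 were lower, among them the steroid sulfotransferase gene Sult2a1 at -1.80 ± 0.31.

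Between 12 and 2 weeks, Stat5b was the member called in livers of HFD males. Stat5b had 52.7, 45.9 and 51.4 CPM in HFD male livers at 12 weeks, against 71.9, 74.7 and 86.5 CPM at 2 weeks. It fell by 0.64 on the log2 scale (SE 0.15, edgeR adjusted p = 0.0063), with no overlap, and the call held without each library. In that comparison 17.1% of all genes were called (7.71% higher and 9.4% lower at 12 weeks) and 1 of the 10 members. Of the 8 liver groups, HFD males at 12 weeks had the lowest mean of Stat5b, 49.97 ± 3.61 CPM, followed by RD males at 12 weeks with 75.3 ± 10.1 CPM (SD, n = 3 each). RD females at 2 weeks were highest with 103 ± 7.38 CPM. Apart from the step above HFD males at 12 weeks, neighbouring groups in this order overlapped.

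Bcl6 in HFD males had 9.43, 116 and 82.6 CPM at 12 weeks and 7.79, 9.34 and 27.6 CPM at 2 weeks. The groups overlapped, and the log2 fold change was 2.22 ± 0.77 (SE, edgeR adjusted p = 0.055, DESeq2 adjusted p = 0.017). It passed in edgeR without HFD male 2 at 12 weeks (2.69, adjusted p = 0.013) and without HFD male 14 at 2 weeks (3.02, adjusted p = 0.034). No member was called for time in RD males, HFD females or RD females, where 0.233%, 0.0189% and 0% of all genes were called. At an unadjusted p under 0.05 these 3 had 0, 1 and 1 members, and DESeq2 called 0 in each. The diet by time interaction, added after these values were seen, called no member in liver. It called 0% of all genes in females and 0.352% in males (0.0503% positive and 0.302% negative). For Stat5b in males it was -0.56 ± 0.21 (log2, SE, edgeR adjusted p = 0.31); 1 member had an unadjusted p under 0.05 in each sex, and DESeq2 called 0.

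Along with Stat5b, other genes of the pathway moved over time in HFD male livers, with 2 of 27 higher and 3 lower, and a median log2 fold change of -0.06 against 0.02 over all genes. Prlr rose by 1.01 ± 0.19, while Irs2, an insulin receptor substrate, fell by 1.88, Grb10 by 0.82 and Igfbp7 by 0.62 on the log2 scale. Of 26 female-biased genes 10 rose, led by Fmo2 at 1.90 ± 0.26 and Abcd2 at 2.43 ± 0.34, and 0 fell. Of 24 male-biased genes 4 fell and 1 rose. All 10 macrophage and Kupffer cell markers were lower at 12 weeks, with sums of 161 to 249 CPM, against 535 to 925 CPM at 2 weeks. So were 7 of 10 endothelial and stellate cell markers, with sums of 196 to 332 CPM at 12 weeks, against 409 to 502 CPM at 2 weeks. Hepatocyte markers summed to 105576 to 109602 CPM at 12 weeks, against 81402 to 87902 CPM at 2 weeks, with 1 of 8 called higher. Adipocyte markers summed to 45.1 to 103 CPM, against 29.2 to 34.7 CPM, with 2 of the 5 tested called higher, and B and T cell markers to 2.07 to 3.10 CPM, against 4.01 to 5.86 CPM, with 3 of the 9 tested called lower. Among acute phase genes 11 of 12 were lower, with sums of 11036 to 27734 CPM at 12 weeks, against 26762 to 82685 CPM at 2 weeks. Of 12 core clock genes 4 rose and 2 fell, with Arntl at -2.57 ± 0.47. The part of these lists in the Stat5b difference was not tested.

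In visceral fat, Socs2 was the 1 gene of the 10 called between the sexes, on RD at 12 weeks. RD females had 27.5, 24.6 and 25.3 CPM, against 12.1, 10.4 and 11.1 CPM in RD males. The log2 fold change was 1.20 ± 0.36 (SE, edgeR adjusted p = 0.041), with no overlap, where 10.6% of all 18325 genes were called. The adjusted p was 0.052 without the filter on low counts. It was 0.074 to 0.117 without any of the 3 RD females or without RD male 3 or 4. At 2 weeks HFD females had 31.3, 39.3 and 26.1 CPM, against 17.4, 12.4 and 19.8 CPM in HFD males. RD females at 2 weeks had 50.2, 21.3 and 30.9 CPM, against 14.7, 17.4 and 15.7 CPM in RD males. Females exceeded all males in both, but neither was called (log2 0.96 ± 0.35 and 1.10 ± 0.35, SE, edgeR adjusted p = 0.12 and 0.086). On HFD at 12 weeks the sexes overlapped, with 26.1, 16.3 and 12.8 CPM in females and 10.5, 11.9 and 29.9 CPM in males.

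**Figure D4:**
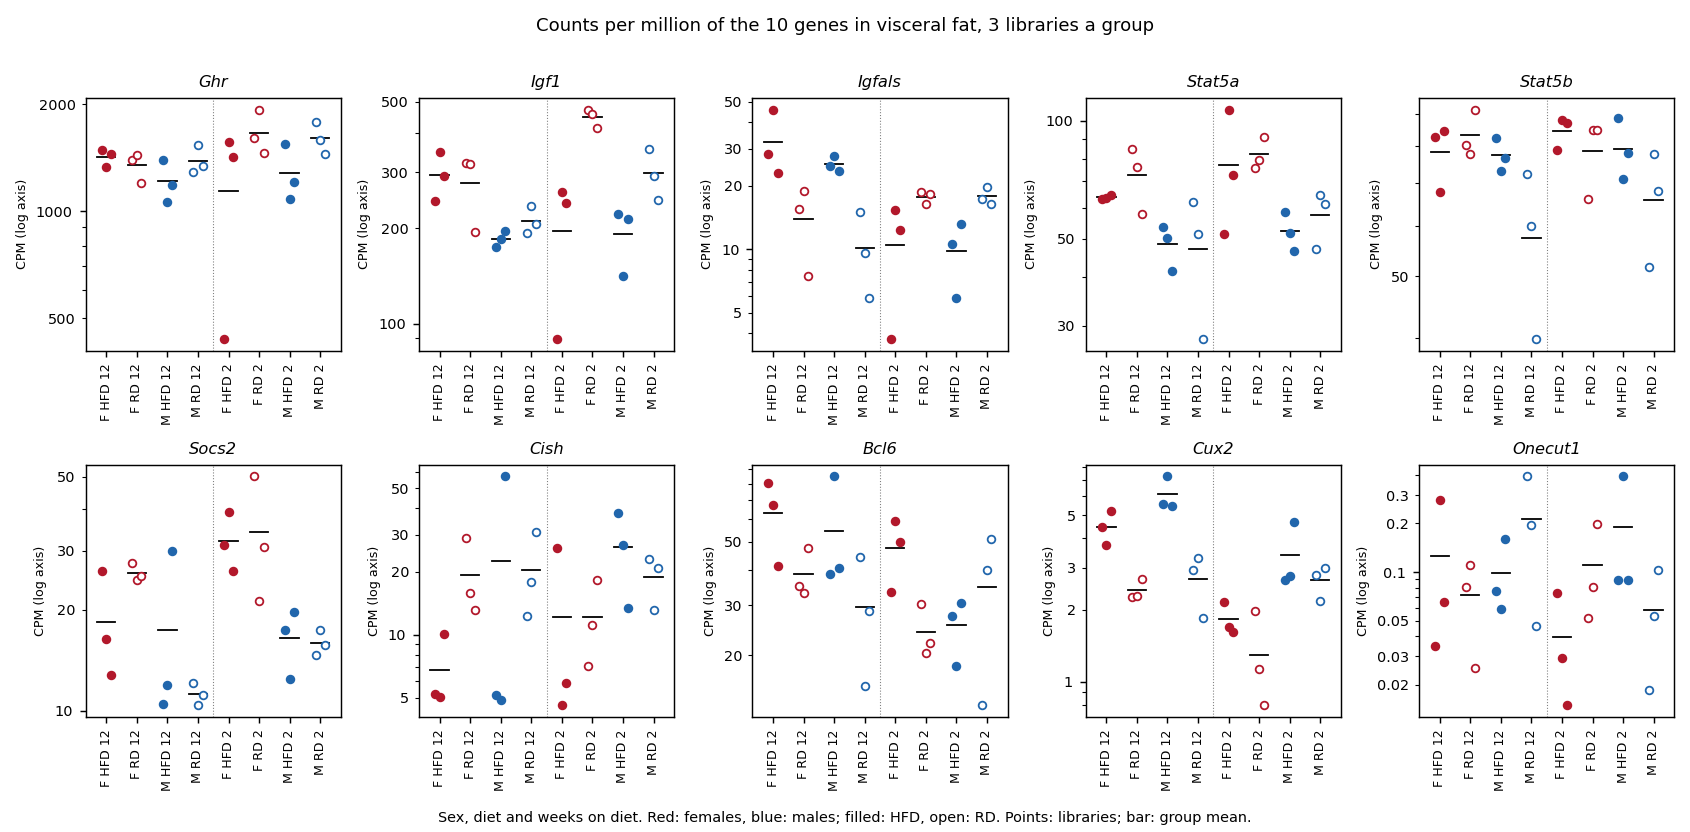
Levels (CPM) of each gene in the 24 visceral fat libraries, on log axes, by sex, diet and weeks on the diet; points are libraries and bars are group means. Igfals and Cux2 stand higher on HFD (filled) than on RD (open) at 12 weeks in both sexes, and Socs2 is higher in females in the RD groups and in the HFD groups at 2 weeks.

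For Socs2 the sex by diet interaction at 12 weeks was -1.12 (log2, approximate 95% interval -2.10 to -0.15, edgeR adjusted p = 0.23). No member was called in it or at 2 weeks, against 1.25% and 0% of all genes. Unadjusted, 1 and 2 members had a p under 0.05, and DESeq2 called 0 at either time. No member was called between the sexes on HFD at 12 weeks, HFD at 2 weeks or RD at 2 weeks, where 2.85%, 3.8% and 4.28% of all genes were called, the last with 1.94% higher and 2.34% lower in females. These 3 had 2, 4 and 2 members at an unadjusted p under 0.05, and DESeq2 called 0, 1 and 2. The shares of all genes by these measures are not given, so these counts are not read as a result. Cux2 ran the other way from liver at 2 weeks, with 2.16, 1.70 and 1.61 CPM in HFD females, against 2.68, 2.78 and 4.70 CPM in HFD males (log2 fold change -0.89 ± 0.32, SE, edgeR adjusted p = 0.11). RD females at 2 weeks had 1.97, 1.13 and 0.79 CPM, against 2.80, 2.18 and 3.01 CPM in RD males (log2 -1.04 ± 0.32, SE, edgeR adjusted p = 0.073). On HFD at 12 weeks Cux2 in female fat, at 3.75 to 5.22 CPM, also lay below that in male fat, at 5.46 to 7.30 CPM, without a call. On RD at 12 weeks the sexes overlapped. Epididymis markers were high in all RD males at 12 weeks and in 3 males at 2 weeks and were at most 2.44 CPM in female fat; their part in the sex differences on RD at 12 weeks was not tested. Without the 2-week libraries with over 100 CPM of Crisp1, an epididymis gene, the log2 fold changes at 2 weeks were 0.77 on HFD and 0.94 on RD for Socs2, and -1.04 on HFD and -0.78 on RD for Cux2, with no call. Adipose progenitor and mesothelial markers summed to 485 to 976 CPM in RD females at 12 weeks and to 265 to 429 CPM in RD males, with 4 of 8 called higher in females. Acute phase genes summed to 700.5 to 810 CPM in these RD females, against 1883 to 2998 CPM in the RD males, with 4 of 12 called lower. The part of these lists in the Socs2 value was not tested.

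Of 30 other pathway genes tested in fat, 6 were higher and 2 lower in RD females at 12 weeks, with a median log2 fold change of 0.07 against -0.02 over all genes. Among them Igfbp7 had a log2 fold change of 0.71 ± 0.14, Grb10 1.44 ± 0.33 and Irs1 1.48 ± 0.37 (SE). On HFD at 12 weeks 2 were higher and 1 lower (median 0.12, against 0.005 over all genes), with Igfbp6 at 1.42 ± 0.26 and the phosphatase gene Ptpn1 at -0.94 ± 0.20. On RD at 2 weeks the median was -0.15, against 0.005 over all genes, and Igfbp6 was higher at 1.43 ± 0.26 and Pappa2, which encodes a protease of IGF-binding proteins, lower at -1.95 ± 0.51.

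Igfals and Cux2 were called higher on HFD than on RD in fat of males at 12 weeks. Igfals had 24.8, 27.7 and 23.4 CPM in HFD males, against 15.0, 9.59 and 5.89 CPM in RD males. Its log2 fold change was 1.32 ± 0.44 (SE, edgeR adjusted p = 0.034). Cux2 had 5.59, 7.30 and 5.46 CPM in HFD males, against 2.94, 3.30 and 1.84 CPM in RD males, with a log2 fold change of 1.18 ± 0.32 (SE, edgeR adjusted p = 0.012). Neither gene overlapped between the diets. These 2 calls of 10 stand against 28.2% of all genes called in that comparison, or 13.2% called higher, and the median of all genes there was -0.11 on the log2 scale. The Igfals call was lost without HFD male 2, 3 or 4 or RD male 3 or 4, with adjusted p of 0.067 to 0.145. That of Cux2 was lost without RD male 4 (log2 0.97, edgeR adjusted p = 0.064).

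Stat5b in the same comparison had 82.5, 73.2 and 76.8 CPM in HFD males, against 72.3, 60.1 and 39.8 CPM in RD males. Its log2 fold change was 0.43 ± 0.18 (SE, edgeR adjusted p = 0.080). The labels state no pairing of these libraries, and with the replicate number as a block the log2 fold change was 0.47 (edgeR adjusted p = 0.048). Without RD male 2 it was 0.65 (edgeR adjusted p = 0.016) and without RD male 4 it was 0.23 (edgeR adjusted p = 0.36). The epididymis markers were near 0 in all HFD males and high in all RD males at 12 weeks, so their presence and the diet cannot be told apart here. Macrophage markers summed to 1780 to 2222 CPM in HFD males and to 493 to 783 CPM in RD males, with 6 of 10 called higher. Acute phase genes summed to 3355 to 3727 CPM in HFD males and to 1883 to 2998 CPM in RD males, with none called. The part of these lists in the Igfals, Cux2 and Stat5b values was not tested. Among the 30 other pathway genes 4 were higher and 6 lower, with a median log2 fold change of 0.04. Igfbp2, an IGF-binding protein gene, fell by 3.08 and Prlr by 1.90 on the log2 scale, while Igf2r, the IGF2 receptor that clears its ligand, rose by 1.74 and Ptpn1 by 1.05.

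HFD females at 12 weeks had the same order as HFD males, without a call. Igfals was at 28.4, 45.9 and 23.0 CPM in HFD females, against 15.5, 19.0 and 7.47 CPM in RD females (log2 1.21 ± 0.44, SE, edgeR adjusted p = 0.19). Cux2 was at 4.45, 3.75 and 5.22 CPM in HFD females, against 2.27, 2.28 and 2.69 CPM in RD females (log2 0.89 ± 0.32, SE, edgeR adjusted p = 0.18). Cish was lower in all 3 HFD females, at 5.20, 5.05 and 10.1 CPM, than in the RD females, at 28.8, 15.9 and 13.1 CPM (log2 -1.51 ± 0.81, SE, edgeR adjusted p = 0.42). In females at 12 weeks 2.08% of all genes were called for diet and no member; 2 members had an unadjusted p under 0.05, and DESeq2 called 0.

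At 2 weeks the order of Igfals was the reverse in both sexes. HFD females had 3.76, 15.4 and 12.4 CPM, against 18.7, 16.4 and 18.3 CPM in RD females. HFD males had 10.6, 5.92 and 13.2 CPM, against 17.3, 19.7 and 16.5 CPM in RD males. All HFD fat libraries lay below all RD fat libraries of the same sex, with log2 fold changes of -0.76 ± 0.44 and -0.85 ± 0.44 (SE, edgeR adjusted p = 0.33 and 0.47). Without HFD female 1, low in adipocyte markers, the female value was -0.36, and without HFD male 13 and RD males 6 and 8, high in epididymis markers, the male value was -0.72. Neither was called, and 0.235% of all genes were called in females and 0% in males at 2 weeks. For Igfals in fat, then, HFD libraries were above RD libraries at 12 weeks and below them at 2 weeks, in both sexes. None of the 4 pairs overlapped, but only the male pair at 12 weeks was called, where epididymis markers went with the diet. How often other genes show such an order was not tested.

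**Figure D5:**
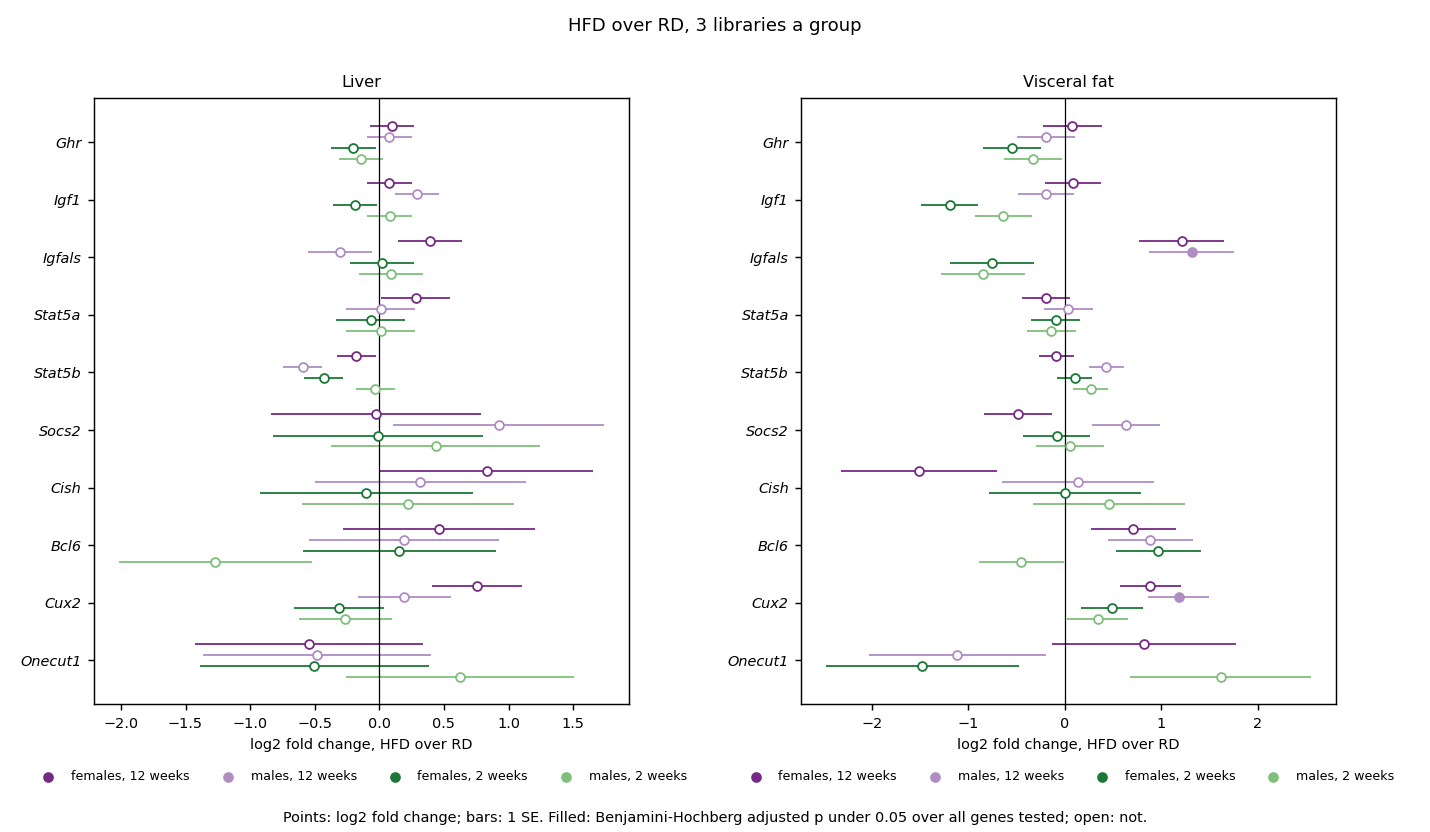
HFD over RD log2 fold change of each gene in liver and in visceral fat, for both sexes at both times; bars are 1 SE and filled points passed an adjusted p of 0.05 over all genes tested. No liver point is filled; in fat Igfals and Cux2 are filled in males at 12 weeks, and Igfals lies to the left of 0 in both sexes at 2 weeks.

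Whether the Igfals difference between diets changed with time was tested as a diet by time interaction, added after the values were seen. The HFD over RD log2 fold change at 12 weeks exceeded that at 2 weeks by 2.17 ± 0.62 in males (SE, edgeR adjusted p = 0.047, DESeq2 adjusted p = 0.0078), where 5.6% of all genes were called and 1 of the 10. In females the difference was 1.97 ± 0.62 (SE, edgeR adjusted p = 0.29), with 0.0709% of all genes and no member called, 2 members at an unadjusted p under 0.05 and 0 by DESeq2. The male call was lost with the replicate block (2.26, edgeR adjusted p = 0.0508). It was also lost without the filter on low counts (edgeR adjusted p = 0.061) and without the 2-week libraries with over 100 CPM of Crisp1 (2.04, adjusted p = 0.24). Without any one of 10 of the 12 libraries the adjusted p was 0.052 to 0.122; it was 0.027 without RD male 2 at 12 weeks and 0.046 without HFD male 14 at 2 weeks. HFD female 1 at 2 weeks, low in adipocyte markers, had the lowest Igfals level, and without it the female difference was 1.56.

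A window at another Igfals start holds a copy of the motif TTCNNNGAA at -236 and is not shown. The Igfals promoter stretch before a RefSeq start at chromosome 17 is shown because Igfals is the member called in this interaction. Its 1 motif TTCNNNGAA, in capitals, begins at -58. GENCODE M21 places the gene at 24865997 to 24882010 on GRCm38, so the stretch lies within the span of the gene, and none of its bases is annotated as exon there.
Igfals chr17:24877981-24878214 (plus strand): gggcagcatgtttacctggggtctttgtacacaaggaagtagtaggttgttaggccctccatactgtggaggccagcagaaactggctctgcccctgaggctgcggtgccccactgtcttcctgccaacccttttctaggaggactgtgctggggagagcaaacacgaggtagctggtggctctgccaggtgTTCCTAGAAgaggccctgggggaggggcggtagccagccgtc

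Igf1 in fat at 2 weeks lay lower on HFD than on RD in both sexes, without a call by edgeR. HFD females had 89.4, 259 and 241 CPM, against 473, 458 and 415 CPM in RD females (log2 -1.19 ± 0.30, SE, edgeR adjusted p = 0.074, DESeq2 adjusted p = 0.0035). HFD males had 221, 141 and 214 CPM, against 357, 292 and 245 CPM in RD males (log2 -0.64 ± 0.29, SE, edgeR adjusted p = 0.44). The diets did not overlap in either sex. HFD male 13, with 141 CPM, and RD males 6 and 8, with 357 and 245 CPM, were the libraries high in epididymis markers; without them, with 1 RD male left, the male value was -0.42 (edgeR adjusted p = 1). Macrophage markers summed to 986 to 1040 CPM in HFD males at 2 weeks, against 573 to 818 CPM in RD males. Without HFD female 1, the library low in adipocyte markers, the female value was -0.85 (edgeR adjusted p = 0.22), while without HFD female 2 or 5 it was -1.44 or -1.36 (edgeR adjusted p = 0.023 and 0.040). At 2 weeks 2 members in females and 1 in males had an unadjusted p under 0.05, and DESeq2 called 1 and 0. At 12 weeks Igf1 was near even, with log2 fold changes of 0.09 in females and -0.19 in males. RD females at 2 weeks had the highest mean of the 8 fat groups, 449 ± 30.03 CPM, and no other group reached their lowest library.

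Ghr in female fat ran from 436 to 1932 CPM, and the lowest value was HFD female 1 at 2 weeks; the other females were at 1203 CPM or more. In male fat it ran from 1064 to 1781 CPM. No comparison of Ghr was called in fat. Stat5a ran from 51.5 to 107 CPM in females and from 27.7 to 64.6 CPM in males, with log2 fold changes of 0.40 to 0.63 for females over males and no call. Onecut1 had 1 to 28 counts in each fat library, and its values there are not read as differences. Bcl6 ran from 20.4 to 80.5 CPM in female fat and from 13.4 to 85.1 CPM in male fat, and no comparison of it was called.

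Over time in fat of HFD animals Cux2 was called in females, at 4.45, 3.75 and 5.22 CPM at 12 weeks, against 2.16, 1.70 and 1.61 CPM at 2 weeks. The log2 fold change was 1.29 ± 0.32 (SE, edgeR adjusted p = 0.049), where 1.51% of all genes were called and 1 of the 10. The adjusted p was 0.071 without the filter on low counts, 0.25 with the compared groups alone, and 0.060 to 0.18 without each of the 6 libraries. The library with 2.16 CPM is HFD female 1, low in adipocyte markers, and without it the log2 fold change was 1.43 (edgeR adjusted p = 0.10). Macrophage markers summed to 1200 to 1313 CPM in HFD females at 12 weeks, against 608 to 1130 CPM at 2 weeks, with none called. B and T cell markers summed to 14.6 to 17.3 CPM at 12 weeks, against 8.21 to 14.1 CPM at 2 weeks, with 1 of 10 called higher. The part of these lists in the Cux2 value was not tested. In HFD males Cux2 had 5.59, 7.30 and 5.46 CPM at 12 weeks and 2.68, 2.78 and 4.70 CPM at 2 weeks (log2 0.85 ± 0.32, SE, edgeR adjusted p = 0.085). Igfals had log2 fold changes of 1.62 ± 0.44 in HFD females and 1.36 ± 0.44 in HFD males for 12 over 2 weeks (SE, edgeR adjusted p = 0.068 and 0.051, DESeq2 adjusted p = 0.0064 and 0.014). Without HFD female 1 at 2 weeks the female value was 1.22 (edgeR adjusted p = 0.26), and without HFD female 2 it was 2.00 (edgeR adjusted p = 0.031). Without HFD male 13 at 2 weeks, high in epididymis markers, the male values were 1.11 for Igfals and 0.75 for Cux2 (edgeR adjusted p = 0.19 and 0.25). In HFD males 12.1% of all genes and no member were called, with 3 members at an unadjusted p under 0.05 and 2 by DESeq2. On RD no member and 0% of all genes were called for time in either sex; 2 members in females and 0 in males had an unadjusted p under 0.05, and DESeq2 called 0.

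Cish in male fat also had a wide range, 11.7-fold, from 4.87 to 57.1 CPM, and the within-group SD of its log2 CPM was 1.15, above that of 87.7% of genes. HFD male 4 at 12 weeks had the highest value, 57.1 CPM, and HFD male 12 at 2 weeks the next, 38.2 CPM. Libraries with these numbers also led the male livers of their groups in Cish. RD male 2 at 12 weeks, with 80.3 CPM of Cish in liver, had 12.3 CPM in fat, the lowest of its group. Whether a number marks the same animal in both tissues is not stated in the labels.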

How the data were processed

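Expression was measured by RNA-seq in liver and visceral fat. The deposited table holds estimated counts per gene and library made by the authors. Per the submitters' processing notes, the tools were kallisto, edgeR and DESeq2 and the build GRCm38, with no version or role. Of its values 36.6% are 0. The way transcript estimates were summed per gene is not stated. The estimated counts were rounded to whole numbers. Each tissue was fitted apart, with 24 libraries in 8 groups, in edgeR 4.0.16 under R 4.3.3 (low-count filter by group, TMM factors, robust quasi-likelihood test). Of 16 contrasts per tissue, 14 were fixed first and 2, diet by time in each sex, were added after values were seen. A call is a Benjamini-Hochberg adjusted p under 0.05 over all genes tested. Shares of all genes called are those of edgeR. Counts of members at an unadjusted p under 0.05 or by DESeq2 are given without such a share. They are not read as a result about the members. SEs were taken from the fold change and the F statistic and are approximate.

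CPM were computed from TMM-scaled library sizes. Totals bound counting error, and with 3 libraries a group the spread between libraries limits precision. Alternatives were DESeq2 1.42.0, RLE factors, no filter on low counts, the compared groups alone, each library left out, a replicate block, and fat without the 2-week libraries over 100 CPM of Crisp1. The fit was tested on simulated data.

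The members and the 14 gene lists were chosen with earlier results of these data known. Named in full were members called in a contrast or in the interaction of that tissue and time; other members are mostly given by range. At most 4 called genes of smallest p were named per other list, and the 3 genes nearest in pattern over the groups for Cux2, Bcl6, Igf1 and Socs2. Members given per library though not called (Ghr, Igf1, Bcl6, Cish, Onecut1 and Stat5b in single comparisons), and Cux1 and Esr1 in settings where they were not among the 4, were chosen after their values were seen. Replicate numbers come from the labels. In fat of males at 12 weeks, deviations of same-numbered HFD and RD libraries correlated at 0.108, 0.134 and 0.154, against 0.0155 at most for different numbers. Libraries of different number reached 0.169 in male livers at 12 weeks and 0.265 in female fat at 2 weeks. Such values do not show that the numbers pair libraries, and the labels state no pairing. The replicate block was therefore read as an alternative run only.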

Additional observations from a re-analysis of the deposited data

Results flagged for a closer look

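The HFD over RD difference of Igfals in male fat passed the test of a change between 12 and 2 weeks by a narrow margin. The interaction was 2.17 on the log2 scale (approximate 95% interval 0.95 to 3.38, edgeR adjusted p = 0.047), in a contrast added after the values were seen. HFD males had 24.8, 27.7 and 23.4 CPM and RD males 15.0, 9.59 and 5.89 CPM at 12 weeks. HFD males had 10.6, 5.92 and 13.2 CPM and RD males 17.3, 19.7 and 16.5 CPM at 2 weeks. All 3 HFD males lay above all 3 RD males at 12 weeks, and below them at 2 weeks. Epididymis markers were high in all RD males and low in all HFD males at 12 weeks, so their presence and the diet cannot be told apart there. At 2 weeks these markers were also high in HFD male 13, with 8267 CPM, and in RD males 6 and 8, with 9932 and 2805 CPM. Without these 3 libraries the interaction was 2.04 (edgeR adjusted p = 0.24). The call was also lost with the replicate block (edgeR adjusted p = 0.0508), without the filter on low counts (edgeR adjusted p = 0.061) and without any one of 10 of the 12 libraries (edgeR adjusted p from 0.052 to 0.122).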

How the results depend on the processing

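Among members with an adjusted p under 0.25 in the main fit, no fold change turned its direction under any alternative run. The directions of other fold changes were not compared. Of the alternative values of single genes, 461 kept their side of the threshold, 32 passed it and 34 no longer passed it. The Cux2 sex difference in liver was called in each of them, with log2 fold changes from 1.85 to 3.06. Counts of members called moved by over 1.5 times as follows, and the cause was not tested. The shares of all genes called in these alternative runs are not given.

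For females over males in liver, edgeR called 1 of the 10 on RD at 2 weeks, against 2 with DESeq2 and 2 with the compared groups alone. On RD at 12 weeks it called 1, against 2 with DESeq2 and 1 to 2 without each library; on HFD at 12 weeks it called 3, against 2 to 5 without each library. For diet in male livers at 12 weeks it called 0, against 1 with DESeq2 and 0 to 1 without each library. For time in HFD male livers it called 1, against 2 with DESeq2 and 1 to 2 without each library.

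For females over males in fat, edgeR called 0 on RD at 2 weeks, against 2 with DESeq2 and 0 to 1 without each library. On HFD at 2 weeks it called 0, against 1 with DESeq2. On RD at 12 weeks it called 1, against 2 with DESeq2, 0 without the filter and 0 to 3 without each library; on HFD at 12 weeks it called 0, against 1 with the compared groups alone. For diet in fat it called 0 in females at 2 weeks, against 1 with DESeq2 and 0 to 1 without each library, and 2 in males at 12 weeks, against 0 to 4 without each library. For time it called 1 in HFD females, against 2 with DESeq2, 0 without the filter, 0 with the compared groups alone and 0 to 1 without each library. In HFD males it called 0, against 2 with DESeq2, 1 with RLE factors and 1 with the compared groups alone. For diet by time in males it called 1, against 0 without the filter, 0 with the replicate block, 0 without the libraries high in Crisp1 and 0 to 1 without each library.

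In fat of males at 12 weeks the replicate block gave 3 members called in place of 2, though whether the numbers pair the libraries is not known. In male livers at 12 weeks and in females at 2 weeks the block called 0 members for diet, as without it. Stat5b in male livers was -0.59 with the block (log2, edgeR adjusted p = 0.076). With 3 libraries a group, the wide spread of Cish, Socs2, Bcl6 and Onecut1 limits what could be detected, and Onecut1 in fat is limited by its counts.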
